A study of Mus musculus with 6 samples.

Results

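Cytosolic ribosomal protein genes were among the genes tied to Bcl6 ChIP peaks in mouse cortical progenitors. The members were chosen by symbol from the authors' gene list, so each has at least 1 listed peak: symbols of Rpl or Rps with a number, an optional a, l, x or y suffix, Rplp0 to Rplp2 and Rpsa, without mitochondrial Mrp genes and Rps6k kinases. This gave 64 of the 4540 listed genes (of all 21900 protein-coding genes, 20.1% were listed), 37 of the large and 27 of the small subunit, with 90 of the 3878 peaks (2.32%). Since listing chose the members, nothing is read from their number. They hold 62 canonical ribosomal proteins and 2 tissue-restricted paralogs, Rpl3l of muscle and Rpl39l of testis.

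The cells were A2 lox.Cre Bcl6 mouse embryonic stem (ES) cells, which carry a Bcl6 transgene that responds to tetracyclines, were maintained on irradiated mouse embryonic fibroblasts and were differentiated with cyclopamine, a hedgehog pathway inhibitor. All libraries came from differentiation day 12 after 24 h of Bcl6 induction with 1 µg/ml doxycycline: 3 chromatin immunoprecipitation (ChIP) libraries made with a Bcl6 antibody and 3 libraries of input DNA from cells of the same line and treatment. Peaks were called by the authors on the pooled libraries of either kind, so the values carry no replicate error and no test was run. Induced and endogenous Bcl6 cannot be told apart, since uninduced cells were not analysed here, and DNA libraries hold no expression values against which the progenitor identity could be checked.

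Ribosomal proteins join with ribosomal RNA into the small subunit, which reads the messenger RNA, and the large subunit, which forms peptide bonds. Their genes are short, scattered over the genome and highly transcribed in growing cells, and their transcripts typically begin at a C within a run of pyrimidines, the 5' terminal oligopyrimidine (TOP) element through which mTOR signalling controls their translation. Bcl6 is a zinc finger repressor known from germinal centre B cells, and in the developing mouse cortex it promotes the transition of progenitors to neurons by repressing Notch targets such as Hes5.

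The start regions of 6 members are shown first. All 6 had a peak over their start, and at least 1 peak among the 8 highest of all members by width, tags or fold. Other members met the same rule. The regions show the pyrimidine run at the place where a promoter peak would be centred. Each is 130 bases long, from 100 before to 30 after the annotated start, written 5' to 3' on the gene's strand from RefSeq sequence of build GRCm38.p6, and the capitals mark the longest run of C or T within 20 bases of the start.
Rps10 (chr17:27635215-27635344, minus strand): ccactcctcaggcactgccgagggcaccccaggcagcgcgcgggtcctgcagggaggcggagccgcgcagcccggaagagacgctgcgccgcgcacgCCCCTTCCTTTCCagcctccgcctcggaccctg
Rps12 (chr10:23787180-23787309, minus strand): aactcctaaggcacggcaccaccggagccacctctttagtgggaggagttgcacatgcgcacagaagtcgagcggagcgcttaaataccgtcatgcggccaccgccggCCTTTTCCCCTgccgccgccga
Rpl27a (chr7:109519095-109519224, plus strand): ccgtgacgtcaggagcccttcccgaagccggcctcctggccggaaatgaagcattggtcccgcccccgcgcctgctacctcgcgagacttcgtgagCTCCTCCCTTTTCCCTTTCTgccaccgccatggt
Rpl11 (chr4:136053364-136053493, minus strand): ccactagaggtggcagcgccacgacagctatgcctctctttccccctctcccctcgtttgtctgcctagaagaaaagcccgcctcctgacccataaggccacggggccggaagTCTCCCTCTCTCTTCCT
Rpl22 (chr4:152325626-152325755, plus strand): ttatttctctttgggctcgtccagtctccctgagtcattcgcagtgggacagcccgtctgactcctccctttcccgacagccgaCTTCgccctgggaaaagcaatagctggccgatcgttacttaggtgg
Rps28 (chr17:33824533-33824662, minus strand): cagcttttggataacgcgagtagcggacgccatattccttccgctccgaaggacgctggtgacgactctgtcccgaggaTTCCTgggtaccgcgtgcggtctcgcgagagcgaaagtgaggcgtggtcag
The runs were 20 bases in Rpl27a, 17 in Rpl11, 13 in Rps10 and 11 in Rps12. Those of Rps28, at 5 bases, and Rpl22, at 4, were short. Rpl10a, Rpsa and Rps19 also met the rule but are not shown, and their runs were 7, 7 and 4 bases. Further members that met it, among them Rpl3, Rpl32 and Rps20, had no start region among the sequences used.

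The peak over the Rpl22 start was the most enriched of all 90, at 71.0-fold over input with 154 tags in 1841 bp. Rpl22 encodes a large-subunit protein that mice can live without and that T cell development needs. Its peak was centred 98 bp downstream of the listed transcription start site (TSS), and its score, which is the peak caller's p-value as minus 10 times its log10, was 375. It ranked 53 by fold among all peaks and was the sole member peak among the 100 highest folds. By width, 5 of the 25 widest peaks and 15 of the 100 widest belonged to members.

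Member peaks were wide and rich in tags but not high in fold. Their median width was 2549 bp (range 917 to 9726), against 1397 bp in all other peaks and 1433.5 bp in other peaks centred within 1 kb of a TSS. Over 2 kb were 55 of 90 member peaks (61.1%), against 830 of 3788 other peaks (21.9%). The median tag count was 114 in member peaks and 57 in the others, while tags per kb were closer, with medians of 45.4 and 39.9. The median fold over input was 19.8 (range 9.04 to 71.0) in member peaks and 21.3 in the others. The 37 small-subunit peaks had medians of 2776 bp, 115 tags and 18.6-fold, and the 53 large-subunit peaks 2502 bp, 104 tags and 21.3-fold. In all, member peaks held 13568 tags, 4.56% of the tags in peaks and 0.116% of the kept ChIP tags (exact 95% binomial interval 0.114 to 0.118, counting error only). The peaks were called on these same tags, and the interval does not cover that choice.

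**Figure D1:**
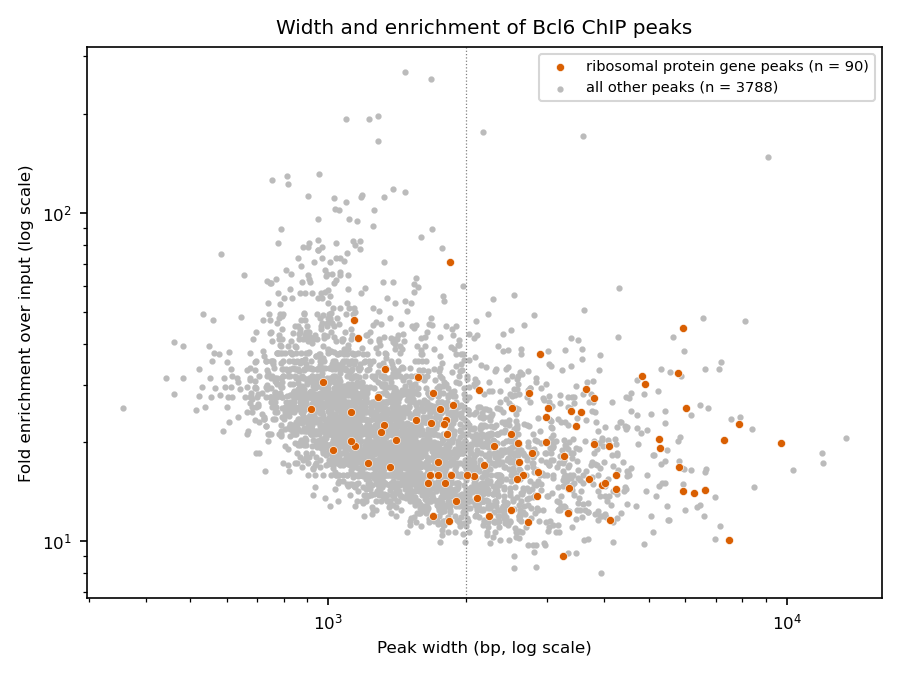
Each point is a peak, placed by its width in bp and its fold enrichment over input, both on log axes; orange points are the 90 peaks of ribosomal protein genes, grey points the 3788 other peaks, and the dotted line marks 2000 bp. The orange points lie mostly to the right of the line (55 of 90) and within the fold range of the grey cloud.

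Most member peaks were centred over 1 kb from the TSS, mostly downstream, though 38 of the 90 overlapped the listed TSS. Only 27 of the 90 (30%) were centred within 1 kb of the member's listed TSS, whereas 2142 of 3785 other listed peaks (56.6%) were that close to their nearest TSS. A further 41 (45.6%) lay 1 to 5 kb away, against 10.1% of the others. Within 5 kb, 58 of 68 member pairs (85.3%) were downstream, with a median signed distance of 1499 bp, against 1516 of 2957 pairs of other genes (51.3%) with a median of 9 bp. Between 1 and 5 kb, 36 of 41 member pairs were downstream (87.8%), against 249 of 566 for other genes (44.0%). These shares describe 1 pooled data set, in which peaks are not replicates.

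Set against the gene bodies, many of the downstream peaks sat at the 3' ends. Of the 90 peaks, 8 covered the whole gene, 28 the 5' end without the 3' end, and 25 the 3' end without the 5' end. Another 12 began beyond the 3' end within 5 kb and 5 farther, 3 lay inside the gene, 3 upstream within 5 kb and 5 farther upstream, and the peak of Rpl17 could not be placed because its strand was not in the tables used. Member genes had a median length of 3169.5 bp, against 17146 bp for all protein-coding genes, so the comparison was limited to genes of at most 6 kb and peaks within 10 kb. There a peak covered the 3' end in 30 of 75 member pairs (40.0%), against 87 of 615 pairs of other genes (14.1%). The summit was nearer to the 3' than to the 5' end in 44 of 75 member pairs (58.7%), against 158 of 615 (25.7%). The 5' end was covered in 45.3% of member pairs and 59.8% of the others. The median gene length was 2969 bp among the members' pairs and 3802 bp among the others.

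The summits gathered just past the gene. They fell 0 to 2 kb beyond the 3' end in 36 of 75 member pairs (48.0%), against 77 of 615 pairs of other genes (12.5%). The fullest bin, 1 to 1.5 kb beyond the 3' end, held 14 member summits (18.7%) and 19 summits of other genes (3.09%). In the last 0.5 kb before the 3' end there were 0 member summits and 10 of other genes.

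**Figure D2:**
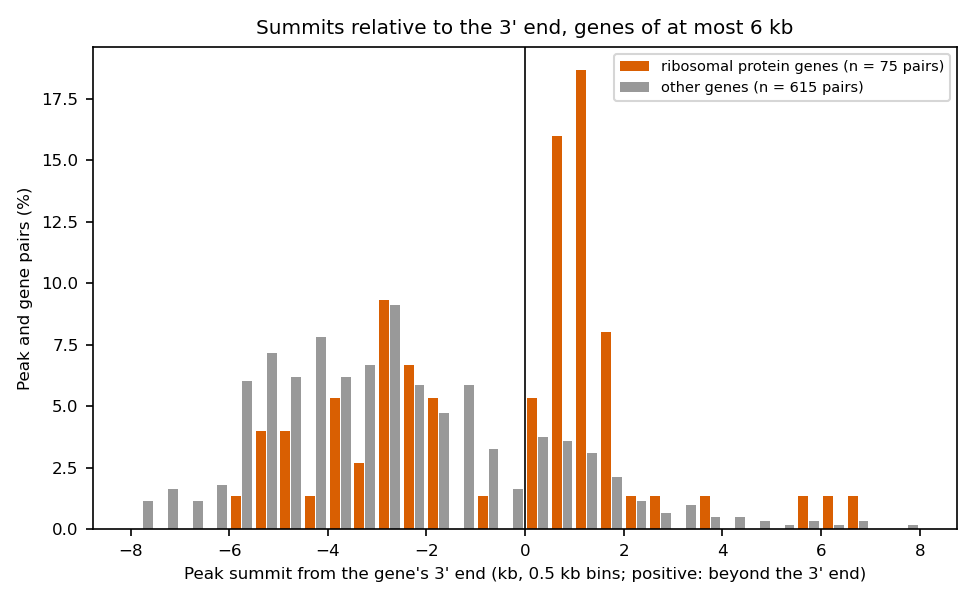
Bars give the percent of peak and gene pairs whose summit falls in each 0.5 kb bin along the gene's strand, with 0 at the 3' end and positive values beyond it, for genes of at most 6 kb and peaks within 10 kb; orange bars are 75 pairs of ribosomal protein genes, grey bars 615 pairs of other genes, and summits more than 8 kb away (2 and 38) are not drawn. Ribosomal protein genes have their highest bars between 0.5 and 1.5 kb beyond the 3' end, while the bars of other genes are highest between 2.5 and 6 kb before it.

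The share was higher for members among wide and among narrow peaks. Among peaks over 2 kb, the 3' end was covered in 25 of 49 member pairs (51.0%), against 62 of 213 pairs of other genes (29.1%). Among peaks of at most 2 kb it was covered in 5 of 26 member pairs (19.2%), against 25 of 402 (6.22%). Within both width groups member peaks were still wider and member genes shorter. Over 2 kb, median widths were 3389 and 2785 bp and median gene lengths 2944 and 3927 bp, members first. At most 2 kb, they were 1617.5 and 1360 bp and 3150.5 and 3704 bp. The part of width and length in these shares was not tested. Other gene families with many peaks are set beside these. Mitochondrial ribosomal protein (Mrp) genes had 1 of 22 peaks over the 3' end and 19 of 22 over the 5' end. Hnrnp and Srsf genes, which encode splicing and RNA-binding proteins, had wide peaks as well, with a median of 2482 bp, but 4 of 25 over the 3' end and 16 of 25 over the 5' end. Translation factor genes (Eif and Eef) had 4 of 30 over the 3' end and 22 of 30 over the 5' end. These families hold longer genes, with median lengths of 5690.5, 7290 and 6877 bp in that order.

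**Figure D3:**
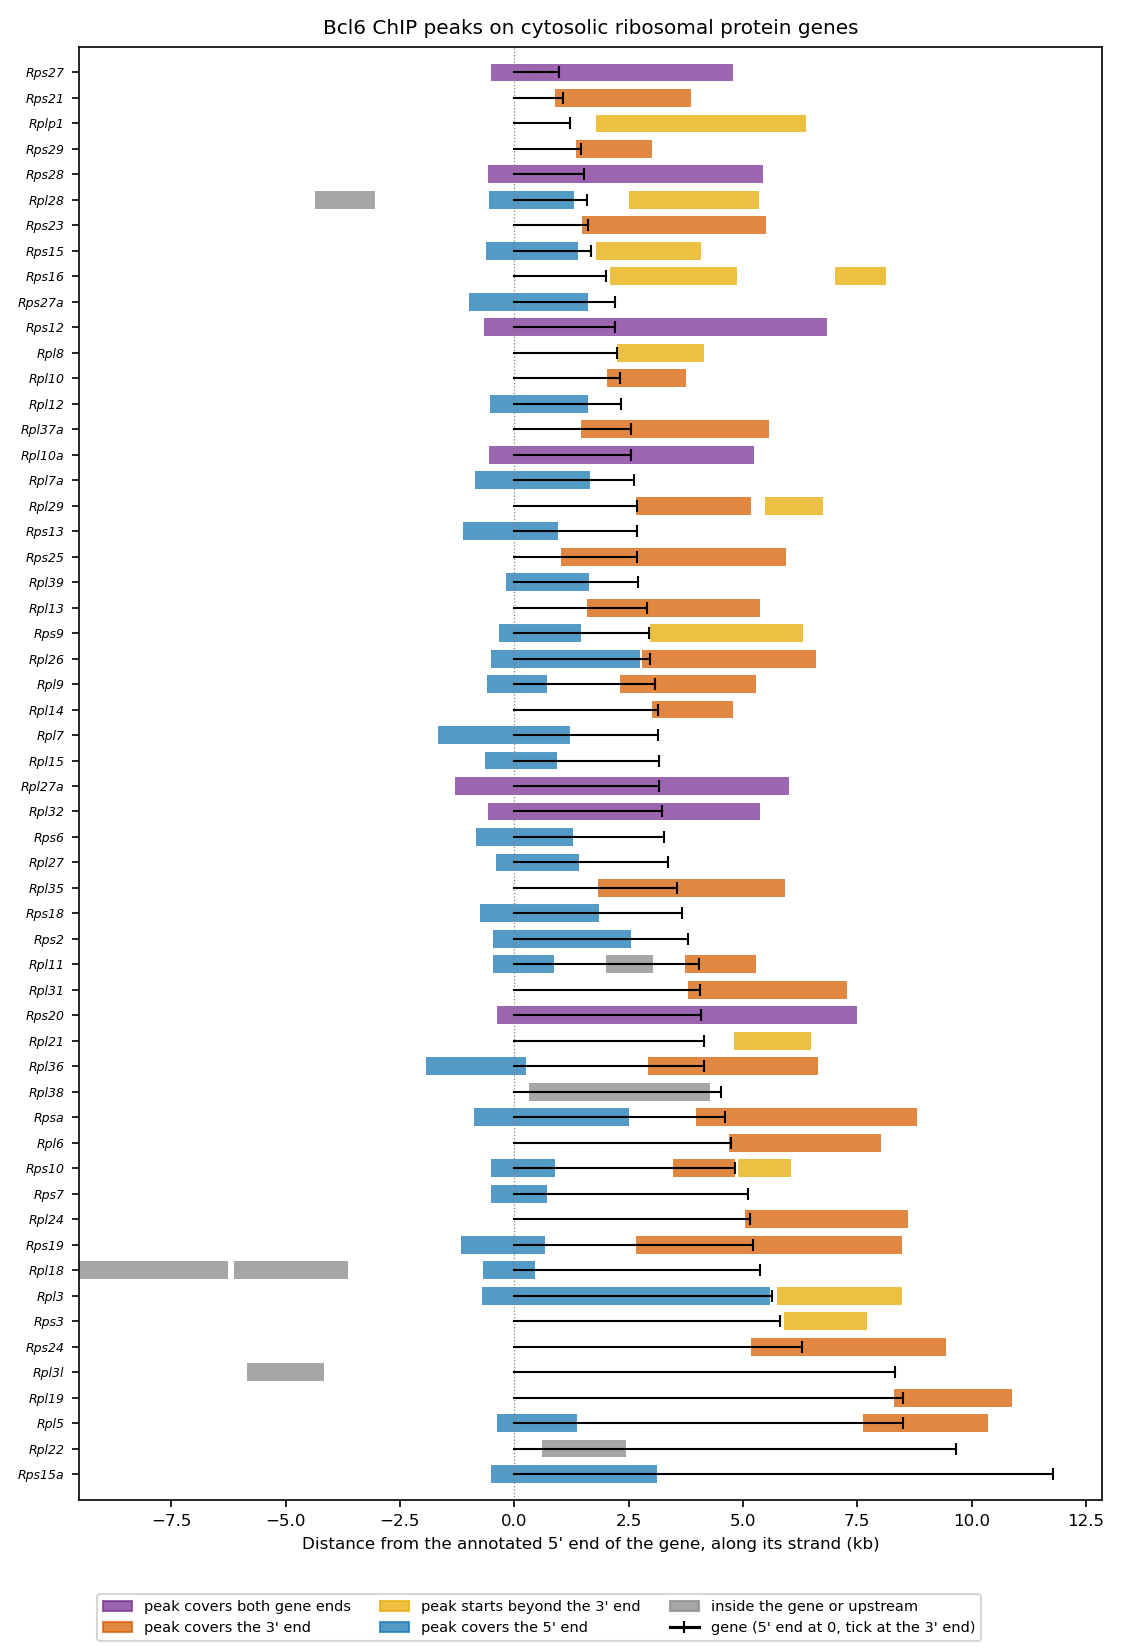
Each row is a ribosomal protein gene with a peak within 10 kb, for the genes described by name, ordered from the shortest at the top to the longest; the black line is the annotated gene from its 5' end at 0 to a tick at the 3' end, in kb along its strand, and coloured bars are peaks by the end they cover. Because colour is set by position, orange and purple bars meet the tick and blue bars meet 0 at any gene length. Yellow bars start beyond the tick.

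The 8 genes covered from end to end included Rpl10a, Rpl27a and Rpl32 of the large subunit and Rps12, Rps20, Rps27 and Rps28 of the small subunit. Their peaks were 5284 to 7855 bp wide and held 238 to 572 tags. Rps12, which encodes a protein of the small subunit's beak, had the member peak with the most tags, 572 in 7481 bp, but only 10.1-fold enrichment. Rpl32 combined 363 tags with 44.7-fold and a score of 567, and Rpl10a had 395 tags at 32.6-fold. Both were among the 8 highest member peaks by fold and by tags, and Rps12 by tags but not by fold. The Rps20 peak, 7855 bp with 401 tags at 22.8-fold, had its summit near the 5' end instead, at −3932 bp from the 3' end.

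In 13 genes a peak over the 5' end was accompanied by a separate peak over the 3' end or beginning beyond it within 5 kb, here called the 3' peak. The 3' peak held more tags than the 5' peak in 10 of them, was wider in 10 and had the higher fold in 8, and the medians were 165 tags at the 3' end and 78 at the 5' end. The peaks were barely separate in Rpl26 and Rpl3, with gaps of 43 and 162 bp. There the 5' peak covered 92.6% and 99.3% of the gene. Rpsa, which encodes a small-subunit protein also known as the laminin receptor precursor, had 339 tags at 31.9-fold at its 3' end, against 141 tags at 24.96-fold at its 5' end. Rps19, the gene most often mutated in human Diamond-Blackfan anaemia, had 350 tags at 16.8-fold at its 3' end, against 92 tags at 11.5-fold at its 5' end. In both genes the 3' peak held over 2 times as many tags as the 5' peak, but it was also wider. The widths of the 3' and 5' peaks were 4827 and 3389 bp in Rpsa and 5815 and 1834 bp in Rps19. Tags per kb were 70.2 and 41.6 in Rpsa and 60.2 and 50.2 in Rps19. The Rps19 3' peak covered 49.0% of its gene.

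The same order held in Rpl9 (154 tags over the 3' end, 55 over the 5' end), Rpl26 (227 and 125), Rpl36 and Rpl5. The ends are those of the RefSeq gene, and the listed TSS of Rpl36 lay 3301 bp from its RefSeq 5' end. The Rpl36 3' peak also covered that listed TSS, so it may equally be called a peak over the start. The Rpl36 5' peak was centred 513 bp downstream of the 2410015M20Rik TSS. It also held in Rps9, Rps15 and Rpl28, whose 3' peaks began 27, 99 and 921 bp beyond the 3' end, and in Rps9 the tags were 231 in that peak and 106 over the 5' end. Rpl11, whose protein binds Mdm2 together with Rpl5, had 3 separate peaks: 80 tags at 23.4-fold at the 3' end, 32 tags at 19.0-fold inside the gene and 57 tags at 33.6-fold at the 5' end. Here tags were higher at the 3' end and fold at the 5' end. The 5' peak held more tags in the remaining genes, among them Rpl3 and Rps10. Rpl3, a core protein near the peptidyl transferase centre, had 373 tags at 28.2-fold in 2736 bp beyond its 3' end and 398 tags at 14.0-fold in 6289 bp over its 5' end. Rps10 had 69 tags at 41.6-fold beyond its 3' end and 70 tags at 20.4-fold over its 5' end, plus 41 tags at 16.8-fold over the 3' end itself.

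**Figure D4:**
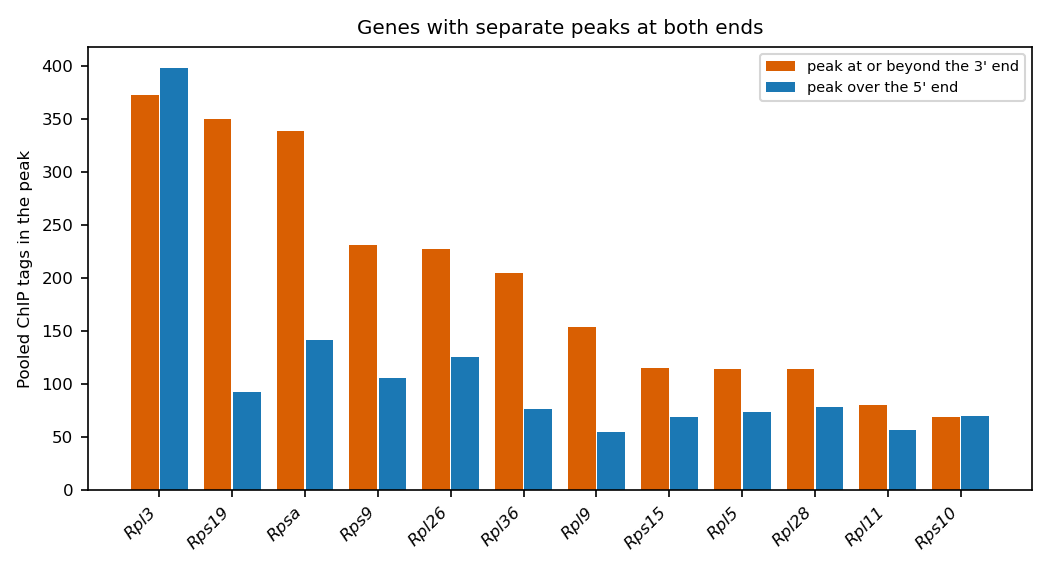
Bars give the pooled ChIP tags in the peak at or beyond the 3' end (orange) and in the peak over the 5' end (blue) of 12 genes with separate peaks at both ends, ordered by the 3' value. The orange bar is the higher one in 10 genes, and the blue one in Rpl3 and Rps10.

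In 16 genes the peaks covered the 3' end and not the 5' end, among them Rpl10, Rpl13, Rpl14, Rpl19, Rpl24, Rpl29, Rpl31, Rpl35, Rpl37a and Rpl6, and Rps21, Rps23, Rps24, Rps25 and Rps29. The 3' peaks of those named held 79 to 253 tags at 11.6- to 30.1-fold. Rps25, required for translation from several viral internal ribosome entry sites, had the highest fold, 30.1 with 231 tags. Rps23, which encodes a decoding-centre protein, had 253 tags at 15.0-fold, and Rpl37a had 185 tags at 11.6-fold, the lowest. The start used by the authors' list lay over 500 bp from the 5' end of the RefSeq gene in 8 members, Rpl24 (7529 bp), Rpl19 (4921 bp), Rpl36 (3301 bp), Rps2 (1989 bp), Rpl22 (1431 bp), Rps15a (891 bp), Rpl38 (791 bp) and Rpl29 (565 bp), so the Rpl24 peak is listed as upstream although it covers the annotated 3' end. The peaks of Rpl8, Rpl21, Rplp1, Rps3 and Rps16 began past the 3' end without touching the gene, the nearest of each at 5 to 662 bp. Rplp1, a protein of the stalk that binds elongation factors, had a peak of 57 tags at 15.96-fold that began 567 bp past the end and one of 147 tags at 37.2-fold that began 2251 bp past it. Rps3, part of the mRNA entry channel, had 88 tags at 21.2-fold in a peak whose summit lay 1214 bp past the end. Rps16 had 129 tags at 18.6-fold and, farther out, 40 tags at 20.1-fold.

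In 15 genes a peak covered the 5' end and no member peak reached the 3' end, among them Rpl7, Rpl7a, Rpl12, Rpl15, Rpl18, Rpl27 and Rpl39, and Rps2, Rps6, Rps7, Rps13, Rps15a, Rps18 and Rps27a. Their 5' peaks held 47 to 165 tags at 13.5- to 31.6-fold. Rpl15 had the highest fold, 31.6, and Rps15a the most tags, 165 at 29.1-fold. Rps6, the classic substrate of S6 kinase, had only 62 tags at 13.5-fold, with a score of 51.9 that was among the lowest. The promoters of Rpl12, Rpl15, Rpl7a, Rpl9, Rps18 and Rps27a are shared, in that a second gene's TSS (Lrsam1, Nkiras1, Med22, Lias, Vps52 and Clhc1 in that order) lay within 1 kb of the same peak. Rpl38, needed in mice for translation of Hox mRNAs, had a peak of 3964 bp with 186 tags at 14.8-fold that lay inside its gene. The Rpl22 peak also counts as inside. Both the Rpl38 and the Rpl22 peak covered the listed TSS, and they count as inside because the annotated genes start farther upstream than that TSS.

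Distant pairs were few. The only listed peaks of Rpl34, Rpl39l and Rps14 lay 372 kb, 89.0 kb and 48.7 kb upstream, and their folds were 25.3, 47.3 and 11.9. Rpl12 had a second peak 53.0 kb upstream at 30.6-fold. Rpl18 had further peaks 4870 and 7877 bp upstream, of 21.3- and 9.04-fold, the second being the lowest fold of all members. Rpl28 had 4 peaks, the most of any member, including one 12.3 kb downstream with 193 tags at 20.5-fold. Rpl3, Rpl29 and Rps13 also had outer peaks 5.55 to 26.3 kb downstream, at 15.1- to 27.6-fold. The peak listed for Rpl3l, 176 tags at 28.4-fold, lay 4988 bp upstream of Rpl3l but started 61 bp past the 3' end of Rps2, a neighbouring member whose own listed peak covered its 5' end. In all, 70 of the 90 peaks were listed with another gene too, and 13 were nearer to that gene's TSS.

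Peaks on canonical genes were in part listed for their neighbours. Of 79 canonical cytosolic ribosomal protein genes, 63 were listed (79.7%, exact 95% interval 69.2 to 88.0), a count that includes Rps3a1, whose symbol the rule did not take. Of the 16 unlisted genes, 8 were overlapped by a peak listed for a neighbour, among them Rpl4, Rpl13a, Rpl23, Rpl23a, Rpl41, Rplp0 and Rplp2. Rpl41, the smallest ribosomal protein, lay whole inside a peak of 290 tags at 38.6-fold that was listed for Zc3h10. That peak was centred 8 bp downstream of the Zc3h10 TSS. The other 8, among them Rpl30, Rpl35a, Rpl36a, Rpl37, Rps4x, Rps26 and Fau, had no overlapping peak.

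Listed members had such peaks as well. A peak of 439 tags at 24.95-fold with a score of 682, higher than that of any listed member peak, covered the 3' end of Rpl12 and was listed for Lrsam1 alone. Rps18 had one of 260 tags at 41.7-fold at its 3' end, listed for Vps52 and B3galt4, and Rpl38 one of 200 tags at 37.2-fold, listed for Ttyh2. Rpl7a, Rpl17 and Rpl18 had 1 each. By plain overlap with the gene body, 64 of 79 canonical genes carried a peak (81.0%, exact 95% interval 70.6 to 89.0), 38 of 47 in the large and 26 of 32 in the small subunit. Of all protein-coding genes 15.4% were overlapped, and of those of at most 6 kb 10.8%.

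The gene ends could be compared without the gene list in the 53 canonical genes of at most 6 kb whose strand the promoter table gives. A peak covered the 3' end in 34 of them (64.2%, exact 95% interval 49.8 to 76.9), against 3.86% of 4612 protein-coding genes of that size. Any peak counted, also one centred near a neighbour's TSS. Examples are the peaks over the 3' ends of Rpl4 (17 bp from the Snapc5 TSS), Rpl41 (8 bp from Zc3h10) and Rpl18 (220 bp from Fam83e). Such peaks were not counted apart in either set. A peak covered the 5' end in 28 (52.8%, interval 38.6 to 66.7), against 8.56%. Both ends were covered in 18, the 3' end alone in 16, the 5' end alone in 10 and neither in 9. Among the 4612 genes the 5' end alone was covered in 287 and the 3' end alone in 70. The 3' end was covered in more of the canonical genes than the 5' end, and in fewer of all genes of that size. Both ends belong to the same genes, so the intervals do not compare them, and the difference was not tested. The genes of that size had a median length of 2247 bp and the canonical ones 3164 bp. Expression level was not measured in these libraries, and its part in the coverage of either end was not tested.

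The promoter windows of 47 members, from 250 bases before to 50 after the start, could be read. A run of at least 8 C or T within 20 bases of the start was found in 25 (53.2%), against 21.2% of the 32851 windows in the table. Motifs were searched as exact letters on both strands, and in 1 member promoter 2 different motifs overlapped. TTCNNNGAA, a palindrome of the kind that Bcl6 and STAT factors are known to bind, was found in 1 of 47 (2.13%), against 8.30% of all windows. It lay in Rpl35, 126 to 118 bases before the start, shown here because it is the sole match, with the palindrome in capitals.
Rpl35 (chr2:39005234-39005272, minus strand): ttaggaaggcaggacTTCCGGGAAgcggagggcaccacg
The Rpl35 peak covered the 3' end and did not reach this start. The ETS core CCGGAAG, bound by factors such as Gabpa, was found in 19 of 47 (40.4%), against 8.86% of all windows. In Rpl35 the ETS core, on the other strand, overlaps the palindrome, which is the overlap counted above. The GC box GGGCGG of Sp factors was in 25 (53.2%), against 35.7%, the YY1 core AAGATGG in 5 (10.6%), against 6.34%, and TATAAA in 3 (6.38%), against 13.6%. Among the 28 promoters with a peak over the start, 12 held the ETS core and 0 the palindrome, and among the 19 without such a peak 7 and 1. The 3' end regions were not searched, since no genome sequence was used.

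Small nucleolar RNA (snoRNA) genes, which guide ribosomal RNA modification and often lie in introns of ribosomal protein genes, were inside 22 of the 64 members, 42 in all, against 1.70% of protein-coding genes with at least 1. The 3' end was covered in 11 of the 22 members with a snoRNA gene and in 22 of the 42 without, so the share was nearly equal. The 5' end was covered in 14 of 22 and in 22 of 42.

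Other genes of the ribosome pathway are set, without a test, beside the 20.1% of all protein-coding genes that were listed. Of 50 ribosome biogenesis genes 18 were listed (36%), with the highest folds at Npm1 (26.6), which encodes nucleophosmin, Polr1b (25.8), a subunit of RNA polymerase I, and Sbds (23.9), which acts in large-subunit maturation. Of 13 genes of TOR and TOP regulation 5 were listed (38.5%). Larp1, whose protein binds TOP mRNAs, had a peak of 45.3-fold centred 15 bp upstream of its TSS, and the translation repressors Eif4ebp1 and Eif4ebp2 had 28.8- and 28.2-fold. Of 16 non-coding snoRNA host genes only Snhg11 was listed, for a peak 23.4 kb upstream at 19.0-fold. The listed share of non-coding genes was not computed, so these have no matching background. Of 78 Mrp genes 25 were listed (32.1%), of 71 Eif and Eef genes 29 (40.8%), and of 32 Hnrnp and Srsf genes 21 (65.6%).

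The score cutoff of the peak caller, 50, sets who is a member. By their highest peak, the members just inside were Rps6 at 51.9, Rpl21 at 55.3 and Rpl17 at 57.0, and peaks below the cutoff were not analysed here. The empirical false discovery rate (FDR) of the authors' table was over 5% in 4 member peaks, of Rpl3, Rpl10a, Rpl32 and Rpsa, up to 9.52% for Rpsa, and these were the 4 member peaks with the highest scores. Over all peaks 38 (0.980%) exceeded 5%. The pooled ChIP held 56836596 tags, of which 11718276 (20.6%) were kept at 1 tag per position, and the pooled input 12808138 tags, of which 5048582 (39.4%) were kept.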

How the data were processed

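Bcl6 ChIP and input DNA libraries, 3 of each, were pooled by the authors, per the labels. The submitters' processing notes name Bowtie and mm10. Per the file headers, peaks were called with MACS 1.4.2 at a p-value cutoff of 1e-05, keeping 1 tag per position, and tied to genes with GREAT 3.0.0 (basal domains reaching 5000 bp before and 1000 bp past each TSS, extended by at most 1000000 bp), which gives the signed distance of the peak centre to the TSS. The deposited tags are raw counts of pooled ChIP tags per peak. The deposited fold is the peak caller's ratio over local input background, the deposited score is minus 10 times the log10 of its p-value (the column name was overwritten and was read from its place and its minimum), and the deposited FDR is a percent.

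From these values counts, medians and shares were computed with Python 3.11.15, pandas 2.3.3, numpy 2.4.6 and scipy 1.17.1. Symbols were matched to RefSeq genes of GRCm38.p6, the same build as mm10; 4397 of 4540 listed symbols matched a protein-coding gene. Strand came from the promoter table (47 members), from the gene end within 250 bp of the listed TSS (14) or from a TSS shared by all peaks (2). The placing of peaks was tested on simulated peaks with distances set from the RefSeq gene end, in genes outside the promoter table. That test did not cover strand from the promoter table or a listed TSS away from the gene end. The members and gene lists were chosen with earlier results of these data known, the comparisons of 3' ends and of gene overlap were added after the values were seen, and members are named, with full values for the 8 highest by width, fold or tags, except some genes that are not reported here by name and are not drawn where a plot labels genes, though they count in the totals. Intervals cover counting error only, and tags carry no molecular identifiers.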

Additional observations from a re-analysis of the deposited data

How the results depend on the processing

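Of 51 alternatives over 10 results, 40 stayed within 1.5 times the reported count, or within the 95% interval of the reported median, and 11 did not. Keeping only peaks of at most 2 kb, which leaves fewer peaks by construction, gave 30 members, 14 peaks within 1 kb of the TSS, 20 downstream, 0 over 2 kb, a median width of 1650 bp, 62 tags and 21.6-fold, 5 peaks over the 3' end and 18 canonical genes overlapped. A width limit of 3 kb left 33 wide peaks. Requiring the peak centre within 500 bp of the 3' end gave 6 in place of 33. The other covering peaks were centred farther from it, mostly beyond the gene, as in Rpl6 (1622 bp) and Rps23 (1879 bp). Some reached the gene only by an edge, and those of Rpl29 and Rpl6 covered 0.597% and 0.928% of their genes. An FDR limit of 5%, a score no lower than the median, the nearest TSS alone, the canonical list, a window of 2 kb, any overlap with the TSS, genes of at most 10 kb, the summit or centre in place of the other, the promoter table's strand and flanks of 1 kb stayed within these limits. Peaks within 1 kb of the TSS, 27 as reported, were then 19 to 38, members 55 to 63 in place of 64, and peaks over the 3' end 25 to 30 in place of 33. The alternatives on 3' ends and gene overlap were chosen after seeing the data. No paired analysis was possible because the authors' values are of pooled libraries, and for the same reason no replicate could be left out. The depth limits what could be called: peaks under the score cutoff were not analysed here, so a gene without a peak is one where none was detectable at this depth.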

Other observations

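Genes with near names outside the rule had peaks too. Rps3a1, a canonical small-subunit gene, had 58 tags at 16.0-fold centred 166 bp downstream of its TSS and 116 tags at 16.0-fold 6509 bp downstream, over its 3' end. Rps19bp1, which encodes a binding partner of Rps19, had 318 tags at 24.2-fold 7.54 kb downstream of its TSS. The pseudogenes Rpl9-ps6, Rpl23a-ps3 and Rpl36-ps3 and the gene Rps3a3 were listed for peaks 19.9 to 962 kb away, at 16.0- to 31.6-fold.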
